A study of Sus scrofa domesticus with 2 samples.

Results

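A collagen-high group of 128 cells was described in cultured aortic endothelial cell (EC) scRNA-seq from the domestic pig. Its members were chosen by their own UMI counts. They were the aorta cells in which at least 5000 genes were detected, 13 mitochondrial genes took less than 30% of the UMIs, and COL1A1 and COL1A2, the 2 chains of type I collagen, together had more UMIs than PECAM1, the endothelial adhesion molecule CD31. They made up 128 of the 709 deep aorta cells (18.1%, 95% Clopper-Pearson interval 15.3 to 21.1), 10.8% of the 1185 aorta cells and a small part of the 7131 cells of both libraries. The 581 deep aorta cells with more PECAM1 than type I collagen UMIs served as the comparison and are called PECAM1-side cells, while the 128 members are called collagen-side cells. No deep cell had equal numbers of both. The cells were given as mural-like, with COL1A1, COL1A2, PDGFRB, CSPG4 and COL15A1 as markers.

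The study cultured primary ECs from pig aorta and pig lung to look for cells in endothelial-to-mesenchymal transition, and sequenced 1 library of each. In these cultures it named a cluster with high COL1A1 and COL1A2 fibroblasts. The aorta cells that it defined as like those in transition were high in TAGLN and ACTA2 but not in COL1A1 and COL1A2. The aorta close to the lung was filled with collagenase solution, and the released cells were grown in DMEM with 10% fetal calf serum, as were the cells washed out of a digested lung. No sort, transgene or added TGF-β is given for either culture, so any cell freed from the vessel wall that attached and grew could be present. For its single-cell tissue libraries, as distinct from those of nuclei, the study took slaughterhouse pigs, 6 months old, of a Landrace, Large White and Duroc cross, but the number of animals, the passage and the days in culture behind the 2 EC libraries are not given in the sources used here. The methods kept cells with over 200 and fewer than 5000 detected genes. Under the mitochondrial list used here, 244 aorta cells lay within those limits. The aorta cell number that the study states is larger than that. It is also larger than the number of cells outside the 709 deep ones among the 1185 aorta cells. If the study drew on this same matrix, its number could therefore not be reached without some deep cells. Which of them entered its clusters is not known. The 2 libraries shared 5 cell barcodes.

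Mural cells wrap blood vessels from the outside. Pericytes sit on capillaries and carry the PDGF receptor β (PDGFRB) and the proteoglycan NG2 (CSPG4), and smooth muscle cells fill the wall of large arteries and hold a contractile apparatus of smooth muscle actin, calponin and myosin. Fibroblasts of the outer wall lay down collagen, and all of these mesenchymal cells can gain or lose contractile genes when they are grown in serum. The comparison asked what else the collagen-side cells carried beside type I collagen, how far the names mural and smooth muscle fit their other genes, and how alike they were. Because the rule sorted these same cells by 3 genes and there was 1 aorta library, the values below describe the sorted cells. No test across cells was made, intervals cover counting error only, and none of the values is independent evidence that the rule found a cell type.

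Depth was similar on both sides of the rule. UMIs per collagen-side cell were 24764 at the lowest, 64512.5 at the median and 129643 at the highest, against 25358, 57099 and 121613 for the PECAM1-side cells. Their median number of detected genes was 6976 against 6743, and their median mitochondrial share of UMIs was 6.70% against 6.66%. Pooled, the collagen side held 8733620 UMIs and the PECAM1 side 34656769. Levels are given as CPM, meaning the UMIs of a gene per 1000000 UMIs of the pooled cells. In this 3′ method each molecule is counted once whatever its length.

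The rule split the deep cells with a wide gap. Type I collagen UMIs per collagen-side cell ran from 149 through a median of 631 to 1742, and PECAM1 UMIs from 0 through 1 to 53, with no PECAM1 UMI in 60 of the 128 (46.9%). In the PECAM1-side cells the collagen UMIs had a median of 2 and a highest value of 48, PECAM1 had a median of 75, and 95 of 581 cells (16.4%) had no UMI of either collagen chain. Just inside the rule lay 1 cell with 339 collagen and 53 PECAM1 UMIs and 1 cell with 480 and 51. The next had 364 and 4. Just outside lay cells with 48 collagen and 74 PECAM1 UMIs and with 25 and 53.

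**Figure D1:**
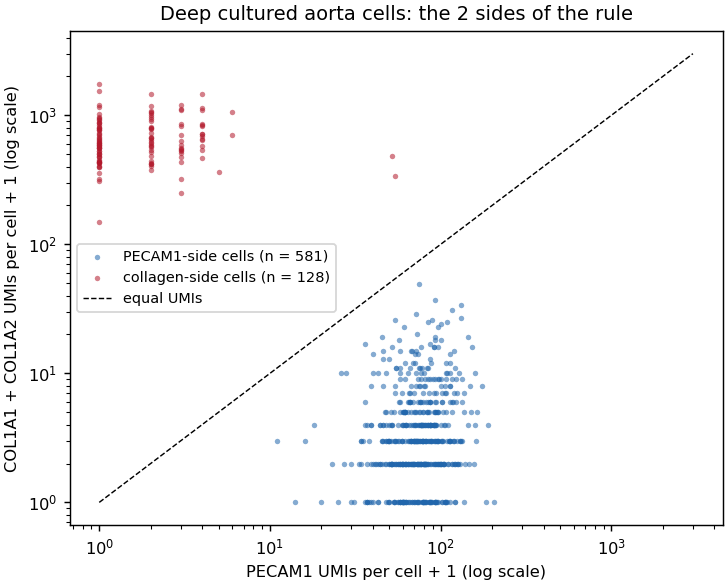
Type I collagen UMIs (COL1A1 plus COL1A2) against PECAM1 UMIs in each of the 709 deep aorta cells, both plus 1 on log scales, with the dashed line at equal UMIs. The 128 collagen-side cells form a cloud far above the line, 2 of them with more than 50 PECAM1 UMIs, and the 581 PECAM1-side cells form one far below it.

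The 2 collagen-side cells with over 50 PECAM1 UMIs were the only ones in which PECAM1 exceeded 10% of the collagen UMIs. Both were called doublets by Scrublet, which called 5 of the 709 deep cells (0.705%). They are called the mixed cells below, and the levels of endothelial genes are given with and without them. Without them PECAM1 was at 14.3 CPM in the other 126 cells instead of 25.9, and ECSCR, an endothelial surface protein, at 3.05 CPM instead of 14.1. They held 78.9% of all ECSCR UMIs and 26.7% of all VCAM1 UMIs of the collagen side.

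Places of the genes that define the group are given on Sscrofa11.1 from the RefSeq annotation of that build, whose gene ends may differ from the Ensembl ones used for counting. COL1A1 (ENSSSCG00000036135) lies on the minus strand of chromosome 12 from 26379087 to 26397180, and COL1A2 (ENSSSCG00000015326) on the plus strand of chromosome 9 from 74174484 to 74210407. PECAM1 (ENSSSCG00000017277) lies on the plus strand of chromosome 12 from 14667643 to 14723296. PDGFRB (ENSSSCG00000022741) is on chromosome 2 from 151155753 to 151192818, CSPG4 (ENSSSCG00000001873) on chromosome 7 from 57949182 to 57988602 and COL15A1 (ENSSSCG00000005380) on chromosome 1 from 240718128 to 240829188. The smooth muscle actin gene ACTA2 (ENSSSCG00000010447) is on the minus strand of chromosome 14 from 100868145 to 100886732.

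All 5 given markers stood higher on the collagen side. COL1A1 was at 4820 CPM in the pooled collagen-side cells and 20.0 CPM in the PECAM1-side cells, and COL1A2 at 5294 and 44.9 CPM, as the rule required. CSPG4 had 10.7 CPM in the lowest collagen-side cell, 154 in the median and 473 in the highest, while 1.55% of PECAM1-side cells had any CSPG4 UMI. Its pooled levels were 177 and 0.260 CPM, a ratio of 682 (358 to 1494). PDGFRB, the receptor through which PDGF-B recruits pericytes, ran from 0 through 125 to 361 CPM per cell and pooled to 126 against 2.02 CPM (62.4-fold, 48.9 to 80.6). COL15A1, a collagen found beside basement membranes, ran from 17.0 through 270 to 856 CPM per cell and pooled to 277 against 0.606 CPM (457-fold, 298 to 740). Every collagen-side cell thus had CSPG4 and COL15A1, and 99.2% had PDGFRB.

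The rest of the pericyte list was mostly low. Only 4 of its 20 genes reached 10 CPM in either side, the limit used for a comparison. All 4 (CSPG4, PDGFRB, ANPEP and PLXDC1) were at least 2-fold higher on the collagen side. Their PECAM1-side levels were 0.260, 2.02, 1.27 and 1.39 CPM. Each reached the limit on the collagen side only, so the limit left no other call. CSPG4 and PDGFRB are also given markers. Over all 8110 genes that reached the limit, 633 (7.81%) were 2-fold or more higher and 1067 (13.2%) 2-fold or more lower, with a median log2 ratio of 0.01. ANPEP, the surface aminopeptidase CD13, pooled to 128 against 1.27 CPM (101-fold, 74.6 to 140). Of the genes most used to name pericytes, RGS5, HIGD1B, HEYL, STEAP4 and GJA4 had no UMI in the 128 cells, which allows a level of up to 0.344 CPM (3 UMIs of 8733620). The ATP-sensitive potassium channel subunits ABCC9 and KCNJ8 had 13 and 14 UMIs, NOTCH3 had 50 and MCAM 45. CD248, also called endosialin, had 79 UMIs against 1.

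The contractile list showed a smooth muscle program in part. Of its 21 genes above the limit, 11 were 2-fold or more higher, 1 was lower and 9 were neither, with a median log2 ratio of 1.35. ACTA2 had 0 CPM in the lowest collagen-side cell, 1145 in the median and 8025 in the highest, against a highest value of 154 CPM in any PECAM1-side cell. Pooled ACTA2 was 1521 against 2.80 CPM (543-fold, 445 to 671). The visceral smooth muscle actin ACTG2 pooled to 211 against 0.289 CPM (731-fold, 397 to 1527), and calponin, CNN1, to 55.3 against 0.231 CPM (240-fold, 121 to 558). Leiomodin, LMOD1, which nucleates actin in smooth muscle, was at 33.0 against 0.491 CPM. The integrin ITGA8, a receptor of smooth muscle and mesenchyme, was at 85.3 CPM against 3 UMIs in the PECAM1-side cells, a ratio of 985 with an interval of 336 to 4789.

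Other contractile genes were shared with the endothelial cells and differed by less. TAGLN (transgelin, SM22) ran from 242 through 1813 to 3966 CPM per collagen-side cell, and 88.8% of PECAM1-side cells also had TAGLN UMIs, up to 2805 CPM. The pooled levels were 1890 and 240 CPM (7.87-fold, 7.66 to 8.08), so the ranges overlapped while those of ACTA2 overlapped only through its low cells. The tropomyosin TPM2 was at 1133 against 58.5 CPM (19.4-fold, 18.5 to 20.3), the regulatory light chain MYL9 at 275 against 48.1 CPM (5.71-fold) and filamin A, FLNA, at 1062 against 416 CPM (2.55-fold). The actin-binding proteins TPM1 and CALD1 were high in both, with TPM1 at 1833 against 2254 CPM and CALD1 at 822 against 763 CPM. Markers of a mature contractile cell were near absent. The smooth muscle myosin heavy chain MYH11 had 5 UMIs in the 128 cells and desmin (DES) 2, and the channel subunit KCNMB1 and phospholamban (PLN) had none. The coactivator MYOCD had 10 UMIs and the matrix gene elastin (ELN) 14. The PDZ-LIM protein PDLIM3 was the 1 gene of the list that was lower, with 3 UMIs against 352 (log2 ratio -4.89), and it lies so near the limit that it was no longer counted under several other settings.

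**Figure D2:**
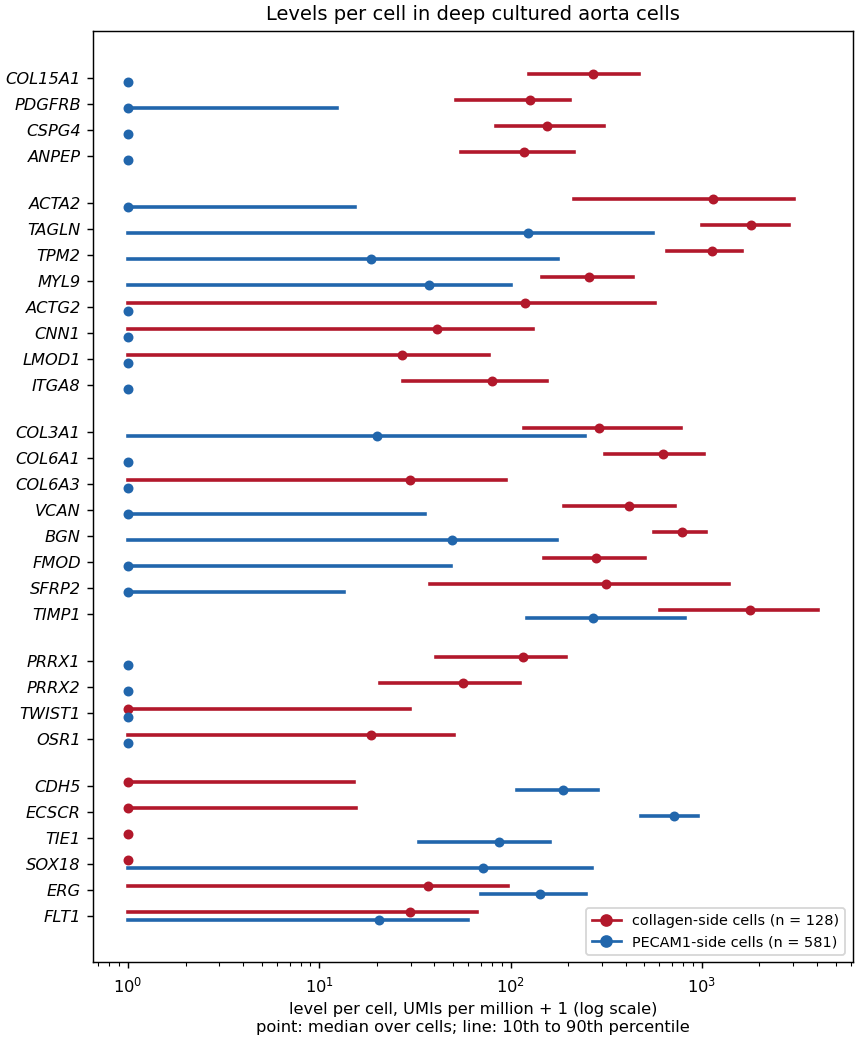
Level per cell of 30 genes in the 128 collagen-side cells (red) and the 581 PECAM1-side cells (blue), in UMIs per 1000000 plus 1 on a log scale, with the median over cells as a point and the 10th to 90th percentile as a line. CSPG4, COL15A1, ANPEP and COL6A1 separate the sides in nearly every cell, and TAGLN and FLT1 are present on both. ACTA2, ACTG2, CNN1 and SFRP2 have long lines among the collagen-side cells. ACTG2 and CNN1 had no UMI in 45 and 25 of the 128 cells, so their lines start at the left end of the scale.

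Smooth muscle genes are known to be driven by serum response factor, which binds a DNA element called the CArG box in their promoters, and the 250 bases before the annotated gene start were therefore searched on both strands for the strict CArG box. SRF, the gene of that factor, stood at 5.04 CPM on the collagen side and 3.58 CPM on the PECAM1 side, under the limit. Among the 21 contractile genes above the limit, 4 windows held a CArG box, against 255 of 19506 windows of protein-coding genes (1.31%). MYL9, CNN2 and VCL were among these, with 1 box each. MYL9 was among the higher genes, while CNN2 and VCL differed by less than 2-fold. The windows of MYL9 (chr17:39787915-39788164, plus strand) and ACTA2 (chr14:100886733-100886982, minus strand) are shown on Sscrofa11.1 from RefSeq, 5′ to 3′ and ending 1 base before the gene start, with the strict CArG boxes in capitals, because these 2 genes varied together over the cells, as given below.
MYL9: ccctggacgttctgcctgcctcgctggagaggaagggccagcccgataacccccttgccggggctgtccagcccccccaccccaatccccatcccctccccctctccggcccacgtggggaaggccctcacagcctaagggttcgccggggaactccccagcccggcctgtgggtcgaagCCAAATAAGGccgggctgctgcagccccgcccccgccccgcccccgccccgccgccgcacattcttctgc
ACTA2: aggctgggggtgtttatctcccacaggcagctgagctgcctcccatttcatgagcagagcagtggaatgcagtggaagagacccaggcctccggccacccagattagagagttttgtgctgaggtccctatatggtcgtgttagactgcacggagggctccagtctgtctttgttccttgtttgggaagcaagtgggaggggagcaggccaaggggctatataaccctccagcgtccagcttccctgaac
The MYL9 box begins 70 bases before the start. The ACTA2 window held no strict box, nor did those of CNN1, ACTG2 and TPM2. The strict pattern is CCWWWWWWGG, with W as A or T. The ACTA2 window does hold ccctatatgg and ccttgtttgg, which each differ from that pattern by 1 base. Boxes with such a change were not counted in any window. The muscle element MCAT (CATTCC on either strand) was in 3 of the 21 contractile windows, those of ACTA2, MYLK and VCL, and in 10.3% of all windows. A match only describes these letters, and its absence says only that they are not in the window.

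The matrix set the collagen-side cells apart beyond type I collagen. Of 7 fibril-forming and fibril-associated collagens other than type I above the limit, 5 were 2-fold or more higher and 1 lower. COL3A1, the partner of type I collagen in the vessel wall, ran from 16.8 through 288 to 3425 CPM per cell and pooled to 405 against 83.8 CPM (4.83-fold). COL5A3 was at 15.3 against 0.115 CPM and COL5A1 at 38.4 against 7.93 CPM, whereas COL5A2 was alike at 219 and 223 CPM. COL12A1, which binds collagen fibrils from the side, was lower at 58.1 against 271 CPM. Of 6 other collagens, 5 were higher, 3 of them the chains of the beaded type VI collagen. COL6A1 had 154 CPM in the lowest cell, 624 in the median and 1704 in the highest, and pooled to 650 against 1.24 CPM (524-fold, 388 to 724). COL6A2 and COL6A3 had 195 and 337 UMIs against 1 UMI each, with ratios of 774 (137 to 30718) and 1337 (238 to 52975). The short-chain collagen COL8A1 was the lower one, at 111 against 278 CPM.

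Genes that process procollagen followed in part. Of 25 above the limit, 10 were 2-fold or more higher, 1 was lower and 14 were neither, with a median log2 ratio of 0.58. PCOLCE2, which speeds the cutting of the procollagen end, was at 109 against 0.289 CPM (379-fold, 205 to 793), the N-proteinase ADAMTS2 had 230 UMIs against 3 (304-fold, 103 to 1486) and the prolyl hydroxylase subunit P4HA3 was at 36.3 against 1.64 CPM. The C-proteinase BMP1 was at 97.3 against 19.9 CPM (4.89-fold), the crosslinking enzyme LOXL1 at 272 against 41.2 CPM and the collagen chaperone SERPINH1 at 950 against 425 CPM. General members of the same pathway stayed within 2-fold. LOX was at 312 against 344 CPM and the hydroxylase subunit P4HA1 at 80.2 against 102 CPM. The lysyl hydroxylase PLOD2 was lower, at 35.4 against 192 CPM (5.43-fold, 4.85 to 6.11).

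Proteoglycans and glycoproteins went both ways, with 8 of 25 higher and 9 lower. Higher were the small leucine-rich proteoglycans PRELP (374 UMIs against 1), BGN (811 against 69.6 CPM, 11.7-fold) and FMOD (292 against 16.9 CPM, 17.3-fold), which bind collagen fibrils. Versican, VCAN, ran from 42.9 through 417 to 1604 CPM per cell and pooled to 435 against 13.1 CPM (33.1-fold, 30.0 to 36.6). The cell-surface proteoglycans SDC2 and GPC1 were at 215 against 4.33 CPM and 41.8 against 0.144 CPM. Lower were fibronectin, FN1, at 78.0 against 479 CPM (6.14-fold, 5.69 to 6.64), thrombospondin 1, THBS1, at 2028 against 4897 CPM, and WISP2 at 7.90 against 186 CPM. The matrix Gla protein MGP, an inhibitor of calcification, was at 32.5 against 149 CPM (4.59-fold lower, 4.07 to 5.19), and had a UMI in 43.8% of the collagen-side cells. Periostin, POSTN, was uneven on both sides, at 1097 against 766 CPM and with no UMI in 20 collagen-side cells. Of 11 elastic fibre and microfibril genes, 4 were higher (EMILIN2, FBN2, FBLN2 and EMILIN1) and none was lower.

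Proteases and their inhibitors leaned to the collagen side, 12 of 22 higher and 4 lower. TIMP1, the secreted inhibitor of matrix metalloproteinases, ran from 121 through 1779 to 7755 CPM per cell and pooled to 2106 against 390 CPM (5.40-fold, 5.28 to 5.52). The serpins SERPINB2 and SERPINE2, which block plasminogen activators, were at 290 against 5.08 CPM (57.1-fold, 49.0 to 66.9) and 487 against 38.0 CPM (12.8-fold). The sheddase ADAM12 was at 89.3 against 3.06 CPM. TIMP3 and the gelatinase MMP2 were lower, at 4.81 against 115 CPM and 64.5 against 259 CPM. Among integrins and collagen receptors, 4 of 12 were higher and 4 lower. ITGB3 was at 75.3 against 3.29 CPM, while its relative ITGB5 was at 13.4 against 250 CPM.

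PDGF and TGF-β genes were found on both sides. Of the PDGF list, 4 of 7 were higher and 3 lower. The receptor PDGFRB was on the collagen side, while its ligands PDGFB and PDGFD were on the PECAM1 side, at 7.90 against 139 CPM (17.6-fold lower, 13.9 to 22.7) and 0.916 against 27.8 CPM. PDGFA was higher, at 223 against 105 CPM, and PDGFRA, the receptor of fibroblasts, had 37 UMIs and stayed under the limit. In the TGF-β list, 5 of 21 were higher and 6 lower. TGFB3 was at 71.1 against 0.721 CPM (98.6-fold, 66.1 to 154) and the activin subunit INHBA at 448 against 34.8 CPM (12.9-fold, 12.1 to 13.8). TGFB2, the ligand often used to drive endothelial-to-mesenchymal transition, was instead at 43.4 against 491 CPM (11.3-fold lower, 10.2 to 12.6), its receptor TGFBR2 at 39.7 against 253 CPM, and the response gene CTGF at 317 against 2043 CPM.

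BMP, Wnt and angiogenic genes were also found on both sides. Of 20 BMP genes 4 were higher and 9 lower, among the latter the ligands BMP4 (16.3 against 282 CPM) and BMP6 (2.52 against 137 CPM). Of 11 Wnt genes 4 were higher (SFRP2, WNT5B, ROR2 and DKK2) and 4 lower. The secreted Wnt modulator SFRP2 was at 479 against 2.54 CPM (189-fold, 153 to 236), and the ligand WNT5B at 88.5 against 1.04 CPM beside its class of receptor, ROR2, at 23.9 against 0.144 CPM. The receptor FZD4 was lower, at 34.1 against 451 CPM (13.2-fold, 11.8 to 14.9). The angiopoietin ANGPT2, an antagonist of the endothelial receptor TEK, was at 29.0 against 2.39 CPM and the lymphatic growth factor VEGFC at 251 against 44.6 CPM. PAPPA, a protease that frees insulin-like growth factors, was at 104 against 1.10 CPM (interval of the ratio 68.7 to 135).

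Of 16 genes of vascular tone, 7 were lower, 4 higher and 5 neither. The vasoconstrictor endothelin 1, EDN1, was at 22.4 against 740 CPM (33.0-fold lower, 28.7 to 38.2) and the natriuretic peptide receptor NPR3 at 3.89 against 243 CPM. Higher were KCNMA1, the pore of the large-conductance potassium channel of smooth muscle, with 117 UMIs against 1, the cGMP phosphodiesterase PDE5A at 25.1 against 2.77 CPM, the cGMP kinase PRKG1 at 14.1 against 4.07 CPM and the sphingosine receptor S1PR2 at 31.8 against 1.99 CPM. In the Notch list 1 of 11 was higher and 4 were lower.

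Mesenchymal transcription factors stood mostly on the collagen side. Of 24 above the limit, 14 were 2-fold or more higher and 3 lower, with a median log2 ratio of 2.01. The homeobox genes PRRX1 and PRRX2, which mark limb and vessel-wall mesenchyme, were at 115 against 2.08 CPM (55.3-fold, 43.5 to 71.2) and 62.5 against 0.231 CPM (271-fold, 136 to 630). PRRX1 was found in every collagen-side cell, from 17.1 through 115 to 302 CPM. TBX3, OSR1 and TWIST1 were at 15.3, 21.5 and 10.2 CPM against 0.115, 0.231 and 0.462 CPM. TCF21, a factor of fibroblasts and epicardium-derived cells, had 91 UMIs against 0, at least 120-fold higher against a floor of 3 UMIs over the PECAM1 side. GATA6 was lower, at 16.6 against 49.2 CPM. Of the 38 HOX genes among the features only 4 reached the limit, and HOXA5, HOXA7, HOXA9 and HOXD8 were all lower, HOXA5 at 6.30 against 42.3 CPM. All 4 reached the limit on the PECAM1 side only, so the limit fixed their direction.

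**Figure D3:**
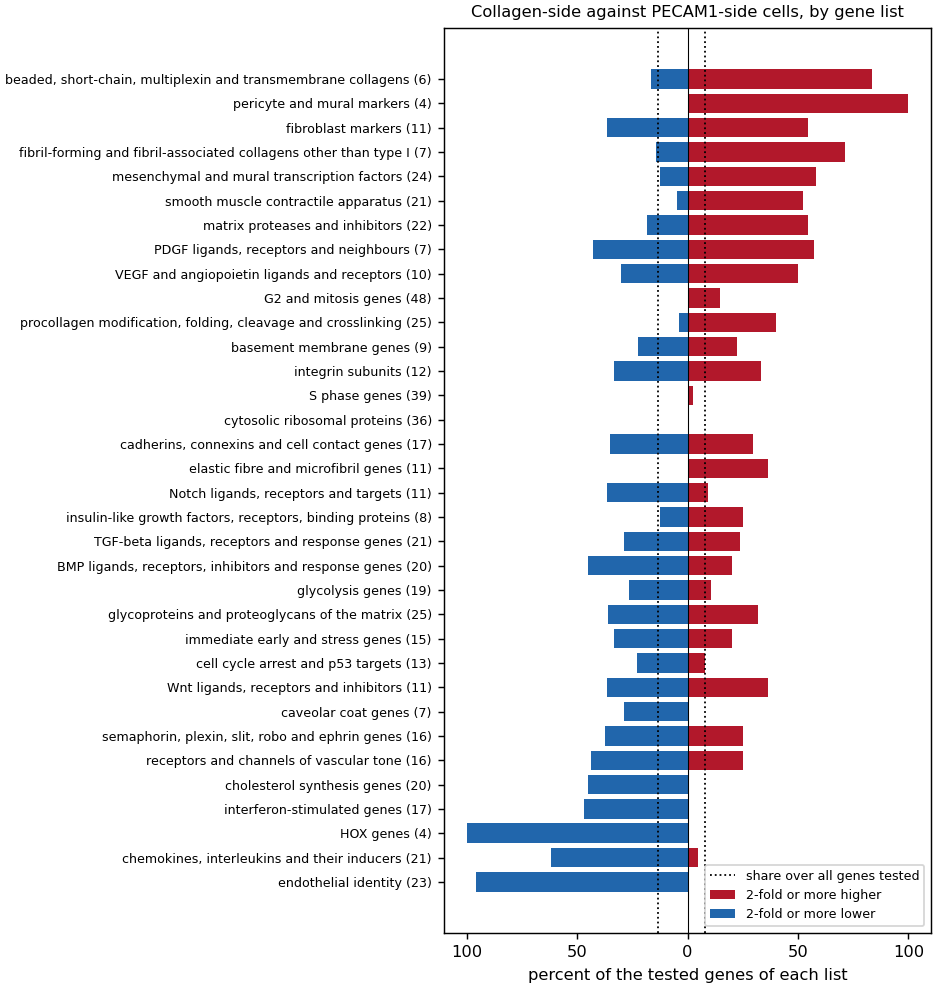
Percent of the tested genes of each list that were 2-fold or more higher (red, right) or lower (blue, left) in the 128 collagen-side cells than in the 581 PECAM1-side cells, with the number of tested genes in brackets and lists ordered by median log2 ratio. Dotted lines give the shares over all 8110 tested genes, 7.81% higher and 13.2% lower. Collagens, pericyte markers, fibroblast markers and mesenchymal transcription factors are at the top and endothelial genes, chemokines and HOX genes at the bottom.

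The fibroblast list did not give a clean answer. Of 11 genes above the limit, 6 were higher and 4 lower. DPT (311 UMIs against 3), SFRP2, TCF21 and THY1 (32.6 against 1.76 CPM) were higher. Decorin, DCN, the common marker of fibroblasts, was at 4.92 against 18.4 CPM and lumican, LUM, at 12.4 against 15.5 CPM, and PI16 and SCARA5, found in adventitial fibroblasts, had no UMI. CD34 and FBLN1, on the list as fibroblast markers, were lower at 3.55 against 187 CPM and 5.50 against 150 CPM. Markers of other cell types were at 0 or low. PTPRC, CD3E, CSF1R and LYZ of leukocytes, KRT5, KRT8, KRT18 and CDH1 of epithelium, SOX10 of glia and HBB of red cells had no UMI in the 128 cells. The summed level of the 14 leukocyte genes was 10.4 CPM, from 0 to 58.5 per cell, most of it CD14 at 8.02 CPM. That of the 10 epithelial and mesothelial genes was 11.7 CPM, from 0 to 80.8 per cell. Most of it was the keratin KRT7, at 10.2 against 7.65 CPM. By their markers the cells thus carried type I and VI collagen, PDGFRB, CSPG4 and a partial contractile set. They also carried the fibroblast-list genes DPT, SFRP2, TCF21 and THY1, while 4 genes of that list were lower. RGS5, MYH11, DES and high DCN were lacking. The name mural-like covers PDGFRB, CSPG4 and the contractile set, and not the fibroblast-list genes or the markers that were lacking.

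Endothelial identity genes were low but not at 0. Of 23 above the limit, 22 were 2-fold or more lower and none was higher, with a median log2 ratio of -4.96. PECAM1 is itself an endothelial marker that the rule used, so its difference between the sides follows from the rule and is no result. The summed level of the 33 endothelial genes measured was 51.1 CPM in the lowest collagen-side cell, 241 in the median and 2556 in the highest, against 1419, 3805 and 8206 CPM in the PECAM1-side cells. The median gene stood at 3.21% of its PECAM1-side level, and at 1.87% without the mixed cells. VE-cadherin, CDH5, was at 4.69 against 193 CPM, 2.23 CPM without the mixed cells, and TIE1 at 0.801 against 90.8 CPM. KDR and VWF could not serve, since they had only 13 and 7 UMIs among the 581 PECAM1-side cells. The part of free RNA and of doublets in these low levels was not tested.

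A few endothelial-list genes were well above that level. FLT1, a VEGF receptor, was at 32.2 against 25.1 CPM and seen in 78.1% of collagen-side and 71.4% of PECAM1-side cells. The transcription factor ERG was at 47.0 against 150 CPM and seen in 85.2% of collagen-side cells, CLEC14A at 63.0 against 238 CPM and the phosphatase PTPRB at 18.4 against 131 CPM. Leaving out the mixed cells moved them to 32.1, 46.3, 61.2 and 16.2 CPM. Most of these UMIs therefore came from the other 126 cells, in contrast to those of ECSCR.

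Chemokines and their inducers were lower, 13 of 21, and 1 was higher. VCAM1, an adhesion molecule for leukocytes, was at 79.8 against 3863 CPM (48.4-fold lower, 44.9 to 52.2), and CXCL8 at 286 against 2964 CPM. CCL2 was high on both sides, at 2383 against 4192 CPM. The higher gene was the cytokine LIF, at 24.5 against 0.289 CPM, which was found in 43.8% of the collagen-side cells. Interferon-stimulated genes were 8 of 17 lower and none higher, and cholesterol synthesis genes 9 of 20 lower and none higher. The cytosolic ribosomal protein genes were alike, with none of 36 past 2-fold.

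Genes of G2 and mitosis were higher in small steps, and those of S phase were mostly under the 2-fold limit. Of 48 G2 and mitosis genes, 7 were 2-fold or more higher and none lower, with a median log2 ratio of 0.63 against 0.01 for all genes. Of 39 S phase genes, 1 was 2-fold or more higher (2.56%, against 7.81% of all genes) and none lower, with a median log2 ratio of 0.29, and TYMS (-0.73), CCNE2 (-0.96) and CDC6 (-0.64) had log2 ratios below 0. CENPF, a centromere protein, was at 330 against 144 CPM (2.30-fold, 2.19 to 2.40) and the mitotic cyclin CCNB1 at 138 against 70.1 CPM (1.98-fold, 1.84 to 2.12). The topoisomerase TOP2A was at 271 against 184 CPM and had no UMI in 33 of 128 collagen-side and 293 of 581 PECAM1-side cells. With each cell thinned to 41000 UMIs, which left 122 and 519 cells, phase scores put 4.92% of collagen-side cells in G1, 40.2% in S and 54.9% in G2M, against 42.6%, 27.4% and 30.1% of PECAM1-side cells. Unthinned shares in G1 were 3.12% and 44.6%. Such calls are relative to the cells scored together, and free RNA may enter them, so cycling is not read from them alone.

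Outside the lists, the largest ratios among genes at 50 CPM or more that at least 50% of the cells of the higher side carried pointed to further secreted and surface proteins. Among the higher ones were the protease inhibitor A2M (57.2 against 0.115 CPM), SHAS2, the pig name for hyaluronan synthase 2 (56.9 against 0.115 CPM), the adhesion molecule CLMP, the tight junction protein CLDN1, the imprinted retrotransposon gene PEG10 (650 against 6.35 CPM, 102-fold), S100A2 (969 against 17.9 CPM), VGLL3, TMEM26, AKAP12, the sphingosine kinase SPHK1, CREB3L1, PAPSS2, the lipase LIPG and WDR41. CREB3L1, a membrane-bound factor of secretory cells that acts on collagen genes, was in every collagen-side cell, from 82.3 through 244 to 476 CPM, and pooled to 233 against 10.0 CPM (23.2-fold, 20.7 to 26.0). PAPSS2, which makes the sulfate donor for proteoglycans, was also in every cell and pooled to 130 against 6.87 CPM. Among the lower ones were RUNDC3B, PDK4, CD93, PRSS12, ACOD1, SERPINI1, LURAP1L, ABLIM1, GRIP1, BMX, MYCT1, LAPTM5, DHRS3 and ENPP6. CD93, an endothelial lectin, was at 1.72 against 195 CPM and PRSS12 at 5.84 against 460 CPM.

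The 128 cells varied little in type I collagen, which chose them, and more in several contractile and matrix genes. Spread is given as overdispersion, the variance of the thinned counts beyond counting noise divided by the squared mean, which had a median of 0.05 over the 2986 genes at 50 CPM or more. COL1A2 had 0.07, COL1A1 0.13, BGN 0.04 and CREB3L1 0.06, but ACTA2 had 0.83, POSTN 1.09, SFRP2 1.11 and ACTG2 1.30. Neither group was of 1 kind, since among collagens COL6A1 had 0.13 but COL3A1 1.09 and COL16A1 1.47, the last at a low level of 18.5 CPM, and among contractile genes ITGA8 had 0.12, TPM1 0.13 and CNN2 0.16. For ACTA2, the 13 highest cells held 34.3% of its UMIs, 4 cells had no UMI, and the 10th and 90th percentiles were 213 and 3016 CPM. ACTG2 was at 0 in 45 cells and CNN1 in 25.

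Several contractile genes varied together. Over the 122 thinned collagen-side cells of this 1 library, ACTA2 had a Spearman rho of 0.71 with TAGLN, 0.59 with TPM2 and 0.56 with MYL9, whose promoter window is shown above beside that of ACTA2. ACTG2 was less close, with a rho of 0.30 to ACTA2, 0.28 to TAGLN, 0.23 to TPM2 and 0.22 to MYL9, and CNN1 had 0.29 with MYL9. The non-contractile genes COL15A1 and POSTN had 0.46 and 0.42 with ACTA2. Among 2785 genes, the 10 most like ACTA2 over these cells were TAGLN, TPM2, TPM1, MYL9, IGFBP7, SDC2, MYL6, COL8A1, COL15A1 and CNN1, with rho from 0.71 down to 0.46, of which 6 are on the contractile list. The type I collagen chains varied with each other, rho 0.70, but COL1A1 had a rho of -0.0033 with ACTA2. SFRP2 ran the other way, with a rho of -0.34 to ACTA2, and the chemokine CXCL8 had -0.35. These are descriptions over cells that share a library and a depth, with no test.

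**Figure D4:**
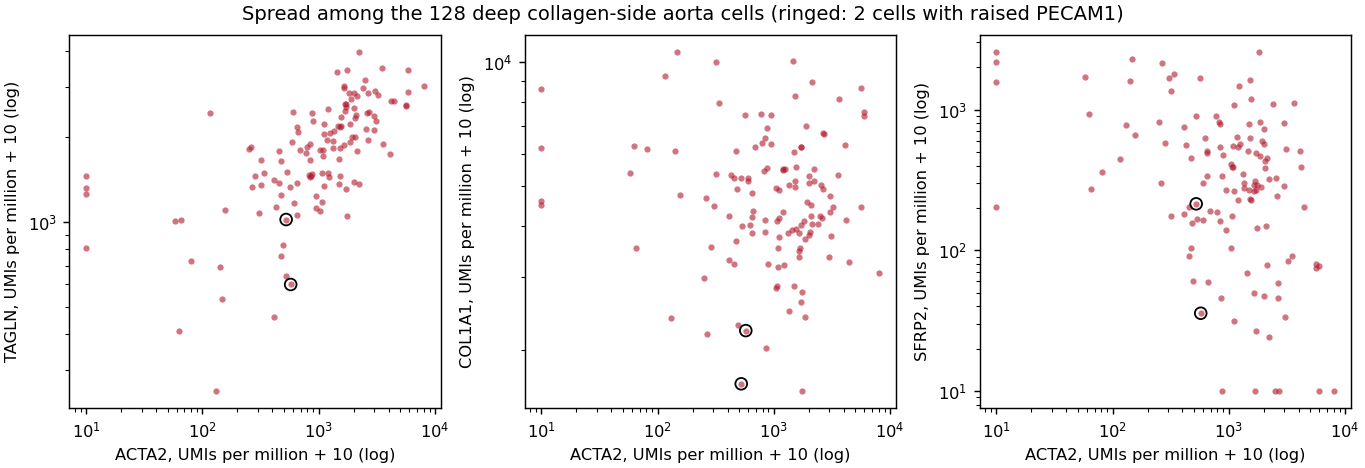
Level of TAGLN, COL1A1 and SFRP2 against that of ACTA2 in each of the 128 collagen-side cells, in UMIs per 1000000 plus 10 on log scales, with the 2 mixed cells ringed. TAGLN is higher where ACTA2 is higher, COL1A1 shows no trend, and the cells with the lowest ACTA2 have SFRP2 mostly at high levels.

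The 10 genes with the largest overdispersion at 50 CPM or more were ANKRD1 (9.86), IFIT1 (7.56), AMCF-II (3.64), ISG15 (3.50), IL6 (3.09), F3 (2.94), ISG12(A), CLDN1 (2.59), HMOX1 (2.44) and LGALS3BP. ISG15, an interferon-induced modifier, was at 103 CPM in the median cell and 6301 in the highest, and its 13 highest cells held 56.2% of its UMIs. It varied with IFI6 and IFIT1, rho 0.76 and 0.68, and with ACTA2 by a rho of -0.05. ANKRD1, a target of YAP that PECAM1-side cells held at 2187 CPM, was at 85.1 CPM, with 64.9% of its UMIs in 6 cells and 17.8% in the 2 mixed cells. The chemokine AMCF-II had 38.8% of its UMIs in 6 cells and the cytokine IL6 38.5%.

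The same rule was applied to the cells most like these. In aorta cells with over 200 and fewer than 5000 detected genes, 57 of 244 (23.4%, 18.2 to 29.2) were on the collagen side. Those 57 had a median of 4323 UMIs and a median of 3 type I collagen UMIs, and 30 of them had under 1% mitochondrial UMIs, which none of the 128 deep cells had, so many were called by a few molecules. In the lung, 356 of 5708 cells with over 200 genes (6.24%, 5.62 to 6.90) were on the collagen side, with a median of 10721.5 UMIs and 109.5 type I collagen UMIs. Of these only 7 had 5000 or more genes, PECAM1 pooled to 191 CPM, and 30 had PECAM1 above 10% of the collagen UMIs, so this set held more endothelial RNA than the aorta one. With 1 library for each tissue, tissue, animal, culture and depth cannot be told apart, and none of the differences was tested.

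The lung collagen side carried much the same genes. Of 560 genes higher in the aorta collagen side and above the limit in the lung, 369 (65.9%) were also 2-fold or more higher in the lung collagen side and none was lower, against 6.8% of all lung genes tested. Of 941 genes lower in the aorta collagen side, 601 were also lower in the lung collagen side and 4 higher, against 9.45% of all lung genes being lower. The 369 shared higher genes made up 76.7% of the 481 lung genes counted the same way. Levels of all 7697 genes compared between the 2 collagen sides had a Pearson r of 0.95 on the log2(CPM + 1) scale, across genes. The same r between a collagen side and its PECAM1 side is not given here. How particular this likeness is can therefore not be read from the r. ACTA2 was at 1093 CPM and TAGLN at 2144 CPM in the lung collagen side, PDGFRB at 129, CSPG4 at 166 and COL6A1 at 746 CPM, all near the aorta levels.

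**Figure D5:**
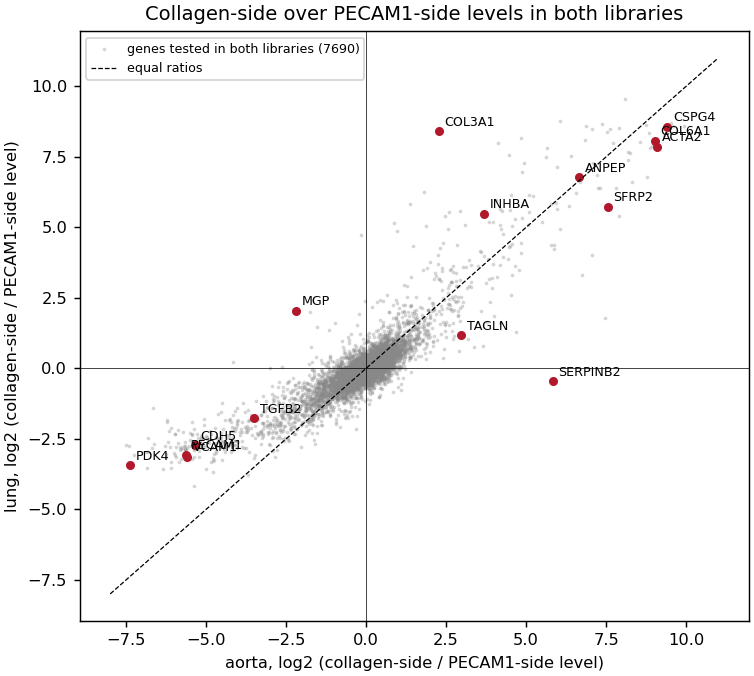
Log2 ratio of collagen-side to PECAM1-side levels for 7690 genes tested in both libraries, aorta on the horizontal and lung on the vertical axis, with named genes in red and the dashed line at equal ratios. Most genes lie along a common trend that is flatter than the dashed line for the endothelial genes, and MGP and SERPINB2 lie off it.

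The aorta cells differed from the lung ones in few genes. Of 7697 genes, 186 (2.42%) were 2-fold or more higher in the aorta collagen side and 241 (3.13%) lower, around a median log2 ratio of 0.07. PRELP was at 42.8 against 2.41 CPM (17.7-fold, 9.54 to 37.3), A2M at 57.2 against 3.38 CPM (16.9-fold, 10.0 to 31.2) and DPT at 35.6 against 2.17 CPM (16.4-fold, 8.53 to 36.2). PRRX1 was at 115 against 44.6 CPM (2.57-fold, 2.20 to 3.03) and CTHRC1, a collagen triple helix protein of repair, at 115 against 22.2 CPM. IL6 was at 97.3 against 10.9 CPM. Lower in the aorta were IGFBP5 (6.98 against 107 CPM), the mesothelial and mesenchymal factor WT1 (1.26 against 31.1 CPM) and desmin, DES, with 0.229 against 23.7 CPM (103-fold, 27.8 to 865). Of the contractile list none of 21 was higher and 2 were lower. In the G2 and mitosis list 16 of 48 were higher, with a median log2 ratio of 0.92, and in the cholesterol list 8 of 19, with 0.88. The aorta cells had a median of 64512.5 UMIs and the lung ones of 10721.5, and the part of depth in these values was not tested. The lung levels pool all collagen-side lung cells, and whether those cells were alike was not examined.

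Some ratios followed the level on the PECAM1 side. COL3A1 was at 405 CPM in the aorta and 492 CPM in the lung collagen side, but the PECAM1-side cells held 83.8 CPM in the aorta and 1.44 CPM in the lung, so its log2 ratio was 2.27 in the aorta and 8.41 in the lung. SERPINB2 was at 290 and 216 CPM in the collagen sides, with 5.08 CPM in the aorta PECAM1 side and 299 CPM in that of the lung, and log2 ratios of 5.84 and -0.47. For both genes the collagen sides were closer to each other than the ratios.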

How the data were processed

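Cultured EC libraries of pig aorta and pig lung, 1 each, were analysed. The authors deposited counts, the UMIs per gene and cell from Cell Ranger 3.0.2 on Sscrofa11.1 (10x 3′ kit, version 3 per the labels), not normalized. The study's limits on detected genes and mitochondrial UMIs had not been applied to them. Barcodes with very few UMIs were already absent, the lowest having 552 in the aorta and 502 in the lung. The aorta library held 46080859 UMIs and the lung library 57213236. Of 22804 features, 7821 had only an Ensembl identifier, and a name table gave 1051 of these a symbol.

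Cells were selected by the rule of the opening paragraph, with ND1 counted as mitochondrial. UMIs were summed per side and given as CPM, with exact Poisson intervals for levels, exact conditional intervals for ratios and Clopper-Pearson intervals for shares, all at 95% and for counting error only. Genes at 10 CPM or more on 1 side were compared, and a ratio of 2 or more counted as higher or lower. With 1 library per tissue there was no test. Cells were thinned to 41000 UMIs, the 10th percentile rounded down, for phases, spread and correlations. The number of cells too shallow for this was 6 on the collagen side and 62 on the PECAM1 side. Scrublet, as run in scanpy 1.11.5, was used to look for doublets, and none was removed. The ratio code was tested on simulated data. Python 3.11.15, numpy 2.4.6, scipy 1.17.1, pandas 2.3.3 and matplotlib 3.10.9 were used.

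The members and the 40 gene lists were chosen with earlier results of these data known, and 38 list genes were not among the features. Named were the given markers, up to 4 genes per list each way by ratio, and list markers of a cell type at 0 UMIs. Also named were the 15 genes each way outside the lists with the largest ratios, and the 10 most variable genes. Those outside the lists had a pooled 50 CPM or more on the higher side and a UMI in at least 50% of its cells. Other genes were named after their values were seen. Some genes and a promoter window are not reported here. Promoter windows and places were read from the RefSeq annotation of Sscrofa11.1, which gave a place for 875 of 898 list and named genes. Alternatives covered the gene and mitochondrial limits, the margin of the rule, doublet scores, weighting of cells, thinning, the denominator and the low-level limit.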

Additional observations from a re-analysis of the deposited data

Results flagged for a closer look

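For 4 genes the collagen-side cells differed from the PECAM1-side cells of their own library by 2-fold or more in opposite directions in the aorta and the lung. The difference between the libraries was not tested, since there is 1 library of each. MGP, an inhibitor of calcification, had a log2 ratio of -2.20 in the aorta (32.5 against 149 CPM) and 2.04 in the lung (72.2 against 17.6 CPM). The lysosomal protease CTSL had -1.53 in the aorta (12.5 against 36.0 CPM) and 1.45 in the lung (37.4 against 13.7 CPM). The carboxypeptidase PRCP had -1.15 in the aorta (18.4 against 41.0 CPM) and 1.37 in the lung (15.7 against 6.07 CPM). C5orf49 had -1.74 in the aorta (5.27 against 17.6 CPM) and 1.98 in the lung (16.2 against 4.10 CPM). In the cases of MGP, PRCP and C5orf49, the PECAM1-side levels of the libraries lay further apart than the collagen-side levels.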

How the results depend on the processing

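The ratios of 56 genes were recomputed under 11 other settings, 616 values in all, and none that passed 2-fold changed sign. Of these values, 45 lay outside the counting interval of the reported ratio. Of 198 recomputed counts, shares and levels on which the comparisons rest, 17 moved by more than 1.5 times or outside their interval. The single lower contractile gene became 0 with a minimum of 6000 detected genes, a mitochondrial limit of 10%, a 10-fold margin in the rule, the mean over cells, thinning, and a limit of 50 CPM. The higher G2 and mitosis genes became 4 instead of 7 with 6000 genes, with the 10% mitochondrial limit and with 50 CPM. With the 50 CPM limit, which tests fewer genes, 264 genes were higher and 446 lower, the higher genes were 3 for other collagens, 2 for mesenchymal transcription factors and 0 for chemokines, and the lower transcription factors were 0. With no low-level limit 3224 were higher and 2367 lower. A side with 0 UMIs was there set at 3 UMIs, which is 0.344 CPM on the collagen side. Genes with no UMI in the collagen-side cells and few on the PECAM1 side could thus be counted as higher. The 3224 is therefore not a count of genes raised on the collagen side. No paired analysis was possible because there was 1 library per tissue. With 1 library, the spread between animals or cultures is not known, and all intervals cover counting error only. Genes with few UMIs on 1 side have wide intervals, and an absent marker may be at a low level or lie outside its gene model.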

Other observations

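Genes of amino acid supply stood higher on the collagen side, a group chosen after its values had been seen. Of 27 genes of serine, asparagine, proline and cysteine synthesis, one-carbon metabolism, amino acid transport and their stress response, 26 were above the limit, 20 were 2-fold or more higher and 1 was lower, with a median log2 ratio of 1.69 against 0.01 for all genes. Asparagine synthetase, ASNS, ran from 0 through 242 to 536 CPM per collagen-side cell and pooled to 243 against 37.4 CPM (6.49-fold, 6.05 to 6.95). PHGDH, the first enzyme of serine synthesis, was at 127 against 23.0 CPM, and PSAT1, the next, at 14.8 against 0.808 CPM (18.3-fold, 12.1 to 28.6). The mitochondrial one-carbon enzyme ALDH1L2 was at 57.4 against 7.27 CPM (7.89-fold, 6.77 to 9.22). The transporters SLC7A5 and SLC7A11 were at 93.9 against 12.8 CPM and 164 against 30.6 CPM, and each was found in all 128 cells. The transcription factor ATF4, which acts on many of these genes, was at 568 against 317 CPM, under 2-fold. SHMT1, the cytosolic serine hydroxymethyltransferase, was the lower one, with a log2 ratio of -1.22. In the lung, 8 of the 26 were 2-fold or more higher on the collagen side, among them ASNS at 228 against 91.6 CPM and SLC7A5 at 98.0 against 24.0 CPM.

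Glycolysis genes were mostly within 2-fold, with 2 of 19 higher and 5 lower. HK2 was at 20.8 against 3.12 CPM (6.69-fold, 5.24 to 8.57), while PFKFB3 was at 12.5 against 86.0 CPM and the lactate exporter SLC16A3 at 7.79 against 67.3 CPM. Guidance genes were 4 of 16 higher and 6 lower, with ROBO1 at 47.7 against 18.4 CPM and the endothelial ROBO4 at 1.15 against 57.2 CPM. Among 17 cadherin, connexin and contact genes, 5 were higher and 6 lower. N-cadherin, CDH2, had 158 UMIs against 1, and CDH11 was at 80.3 against 0.433 CPM (185-fold, 112 to 333), while the connexin GJA5 was at 6.18 against 255 CPM.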
